A study of Saccharomyces cerevisiae with 10 samples.

Results

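Settled filamentous growth was examined by setting the arrays of hours 7, 8, 9 and 10 against those of hours 3, 4, 5 and 6 of a time course in budding yeast, Saccharomyces cerevisiae. These 8 of the 10 arrays in the series were taken because hours 1 and 2, which hold the first response to the new medium, were left out. All cells were wild-type diploids. They first grew as yeast-form cells in liquid SHAD medium, which has ample glucose and ammonium, and were then placed on SLAD agar, which is low in ammonium and on which diploids grow as filaments. The later hours therefore hold cells that had been on SLAD agar for 7, 8, 9 and 10 hours, and the earlier hours cells that had been there for 3, 4, 5 and 6 hours. On each two-colour array, RNA of filamentous-form cells of that hour was hybridised together with RNA of yeast-form cells from SHAD. The strain background is not given in the sources used here. Every hour has a single array, and the labels do not name separate cultures for the hours, so the p-values measure only the scatter among these arrays, which may be technical.

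Each value is a log2 ratio, centred on the median of its array, so that 0 is the middle of all open reading frames (ORFs) on that array. The channels are listed with the filamentous form first, and the ratio is written here as filamentous over yeast form. That direction is likely but is not stated. Its other basis is that genes under nitrogen catabolite repression lay above 0 in their median. Of 36 such genes, 12 had a mean below 0 in the later hours and 11 in the earlier hours. With the opposite direction every sign below would turn. A difference between later and earlier hours is the mean of hours 7 to 10 minus the mean of hours 3 to 6, with odd against even hours as a term in the fit. It is a difference between ratios, so that the yeast-form channel drops out as far as the same yeast-form RNA was used on all arrays, which is not given in the sources used here. Fewer cells of a kind and less RNA per cell cannot be told apart in such bulk RNA.

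Diploid yeast starved of ammonium turns on genes for the uptake of poor nitrogen sources, elongates its cells and buds from one pole, so that chains of attached cells grow into the agar. The filamentation MAP kinase cascade and the Ras and protein kinase A pathway drive this programme, and the adhesin FLO11 is its best-known target. Growth as a filament also needs new membrane. Ergosterol, the main sterol of yeast membranes, is made from acetyl-CoA through mevalonate, farnesyl pyrophosphate, squalene and lanosterol. The transcription factors UPC2 and ECM22 activate many of its genes when sterol is scarce.

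The general properties of the arrays overlapped between the sides. Usable values numbered 5802 to 6063 per array. The standard deviation (SD) of the centred ratios over an array averaged 1.15 ± 0.078 in the later hours and 1.13 ± 0.078 in the earlier hours (SD, n = 4 each), a difference with an exact permutation p of 0.743. In this design the smallest exact p is 0.0286. The values listed as 0, which were taken as missing, averaged 351 ± 97.2 per array in the later hours and 340 ± 96.9 in the earlier hours (exact permutation p = 0.914). Arrays of the same kind, both odd or both even, correlated across the sides over all ORFs with a mean r of 0.606, against 0.610 for pairs of the same kind within a side. Pairs of 1 odd and 1 even hour had a mean r of 0.448 across the sides and 0.452 within a side. These correlations are descriptions over ORFs that share arrays and spots. The arrays thus differed by odd and even hour, and pairs from different sides were about as alike as pairs from the same side. What separates odd from even hours is not given in the sources used here and was not tested.

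Of the 6292 ORFs in the table, 5752 had at least 3 values on each side and were tested, and 5036 of them had all 8 values. No ORF differed between later and earlier hours past a Benjamini-Hochberg adjusted p of 0.05 (limma), a background of 0%. The smallest adjusted p was 0.871. At an unadjusted p under 0.05, 141 ORFs were higher in the later hours (2.45% of those tested) and 163 lower (2.83%), together 304 (5.29%). On the deposited scale, without centring, this split was 94 higher and 203 lower. The differences had a median size of 0.28 on the log2 scale, and the 95% confidence interval of a single ORF extended a median of 0.82 to either side. A difference of 1 or more was reached by 204 ORFs in the higher direction and by 174 in the lower direction. No single gene was called, and the values below are descriptions of these arrays, whose number limits the precision. Members of a list without all 8 values are counted but not named. The shares of 2.45% higher and 2.83% lower are the background for every list count at an unadjusted p under 0.05 below.

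Agreement between odd and even hours was looked at in the same way. The later hours lay wholly above the earlier ones both in the odd and in the even hours for 151 of the 5036 ORFs (3.00%), and wholly below for 176 (3.49%). On the deposited scale, without centring, these counts were 90 and 251. Over those 5036 ORFs, the difference among odd hours had the same sign as that among even hours in 51.7%, and the r of both differences was 0.018. The odd hours (7 and 9 minus 3 and 5) and the even hours (8 and 10 minus 4 and 6) use separate arrays.

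**Figure D1:**
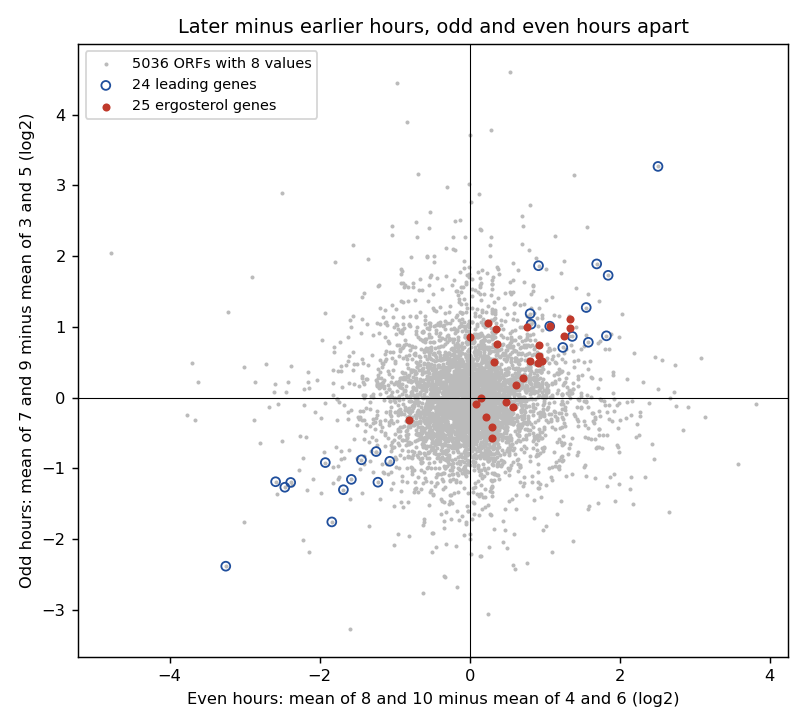
Later minus earlier difference of each ORF with 8 values, in log2 units, among even hours (x axis) and odd hours (y axis). Grey points are the 5036 ORFs, and red points are the 25 ergosterol genes, of which 16 lie above 0 on both axes. Blue rings are the 24 leading genes. They were chosen on these same values, by the smallest unadjusted limma p among named genes whose sides did not overlap in odd or in even hours.

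Genes of ergosterol synthesis stood highest among the 41 gene lists examined. The array carried 26 of them, of which 25 were tested, all with 8 values, and ERG10 was not. The median difference of the 25 was 0.56, with a range of -0.56 to 1.22, while the median over all tested ORFs was -0.0050. Of the 25 members 20 were above 0. At an unadjusted limma p under 0.05, 11 were higher and 0 lower, where 2.45% and 2.83% of all tested ORFs were, and no member had an adjusted p under 0.871. In 9 members the later hours lay wholly above the earlier hours in both kinds of hour, against 3.00% of all ORFs with 8 values. In 0 members they lay wholly below, against 3.49%. The median difference was 0.52 in odd hours and 0.57 in even hours, and 16 members were above 0 in both, where 24.4% of all ORFs with 8 values were. The other 40 lists had medians between -0.28 and 0.21. The ergosterol list was singled out because it stood highest on these same arrays. The counts of its members describe that same difference and are no separate support for it.

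The ratios behind this difference were mostly below 0 on both sides. Of the 25 members, 17 had a mean below 0 in the later hours and 23 in the earlier hours, and the median of the members' means was -0.30 in the later hours and -0.96 in the earlier hours. By array, the list's median ratio was -0.47, -0.79, -0.57 and -0.40 at hours 7 to 10, against -0.51, -1.34, -1.34 and -0.81 at hours 3 to 6. It was -0.11 at hour 1 and -0.82 at hour 2. The array medians of the sides overlapped, since hour 3 lay among the later hours, and hours 4 and 5 had the lowest medians of the course. The count of 11 members was lower without some arrays. Without hour 5 or without hour 10 it was 5, without hour 9 it was 6, and without hour 4 or hour 6 it was 7. The median difference stayed at 0.43 or more in every fit that left out 1 hour, the lowest being without hour 5. With hours 1 and 2 added to the earlier hours it was 0.31, with 4 members at an unadjusted p under 0.05. Comparing only hours 9 and 10 with hours 3 and 4 gave 0 members at that p and a median of 0.63.

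**Figure D2:**
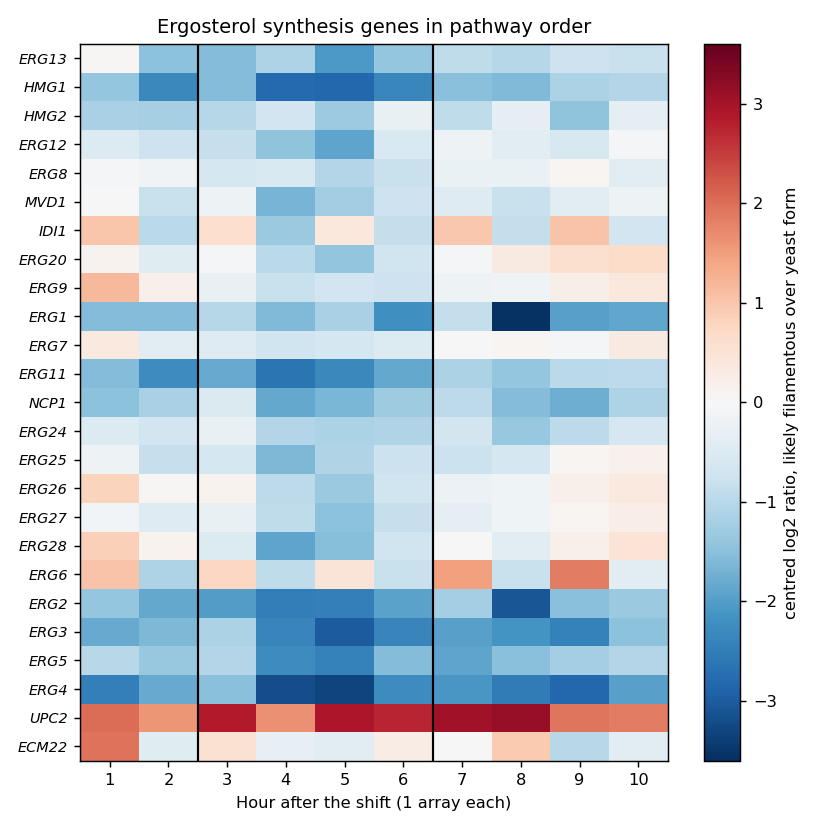
Centred log2 ratio (colour) of the 25 ergosterol genes in pathway order, from mevalonate synthesis at the top to the regulators UPC2 and ECM22 at the bottom, at each hour. Black lines part hours 1 and 2, hours 3 to 6 and hours 7 to 10, and the list's median was lowest at hours 4 and 5, with -1.34 at each.

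In the mevalonate branch, HMG1, the main HMG-CoA reductase and the rate-setting enzyme of the pathway, had ratios of -1.51, -1.58, -1.13 and -1.05 at hours 7 to 10, against -1.56, -2.80, -2.83 and -2.34 at hours 3 to 6. The later hours lay above the earlier ones except for hour 3, which was close to hours 7 and 8, and the difference was 1.07 with a 95% interval of 0.28 to 1.85 and an unadjusted p of 0.014. Its paralog HMG2 had a mean of -0.75 ± 0.53 in the later hours and -0.82 ± 0.45 in the earlier hours (SD, n = 4 each), a difference of 0.068. ERG13, the HMG-CoA synthase one step before, stood at -0.92, -1.01, -0.76 and -0.80 at hours 7 to 10, against -1.55, -1.12, -2.07 and -1.40 at hours 3 to 6. All 4 later values were above all 4 earlier ones, and the difference was 0.67. ERG12, mevalonate kinase, had ratios of -0.17, -0.42, -0.57 and -0.043 at hours 7 to 10, against -0.84, -1.45, -1.90 and -0.53 at hours 3 to 6. Its earlier hours ran lower, most of all hour 5, while hour 6 lay among the later hours, and the difference was 0.88. ERG8, which adds the next phosphate, stood at -0.25, -0.25, 0.073 and -0.40 at hours 7 to 10, against -0.62, -0.56, -1.06 and -0.81 at hours 3 to 6. All of its later values exceeded its earlier ones, by 0.56 on average. MVD1, the decarboxylase that follows, and IDI1, which isomerises its product, differed by 0.496 and 0.41. IDI1 was above 0 at the 4 odd hours and below 0 at the 4 even hours, so that the odd and even term mattered to it.

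ERG20, which makes farnesyl pyrophosphate, had ratios of -0.076, 0.32, 0.57 and 0.66 at hours 7 to 10, against -0.040, -0.97, -1.43 and -0.71 at hours 3 to 6. Hour 3 overlapped with hour 7, the other later hours lay above 0, and the difference was 1.16 (95% interval 0.34 to 1.97). ERG9, squalene synthase, the first enzyme devoted to sterols, stood at -0.18, -0.13, 0.22 and 0.39 at hours 7 to 10, against -0.26, -0.81, -0.68 and -0.74 at hours 3 to 6. Its later values all lay above its earlier ones, with a difference of 0.70. ERG1, squalene epoxidase, went the other way in its mean, with -0.86, -3.55, -1.94 and -1.87 at hours 7 to 10, against -1.03, -1.59, -1.16 and -2.20 at hours 3 to 6. Hour 8 was the lowest of these values, the sides overlapped, and the difference of -0.56 had an interval of -1.56 to 0.43. ERG7, which closes the ring to lanosterol, had ratios of -0.013, 0.063, -0.043 and 0.33 at hours 7 to 10, against -0.48, -0.73, -0.63 and -0.48 at hours 3 to 6. The sides did not overlap, and the difference of 0.66 was among the smaller ones with an unadjusted p under 0.05.

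ERG11, the cytochrome P450 that demethylates lanosterol and the target of azole drugs, showed the smallest unadjusted p of the list. Its ratios were -1.14, -1.40, -0.98 and -0.94 at hours 7 to 10, against -1.83, -2.63, -2.31 and -1.84 at hours 3 to 6. All later values lay above all earlier values, and the mean was -1.11 ± 0.21 in the later hours and -2.15 ± 0.39 in the earlier hours (SD, n = 4 each). The difference was 1.04, with a 95% interval of 0.41 to 1.67 and an unadjusted p of 0.0054, in odd hours 1.01 and in even hours 1.07. Its ratios were -1.57 at hour 1 and -2.27 at hour 2. The values of ERG11 at hours 7 to 10 were thus also the highest of its whole course. This did not hold for every member, as ERG9, ERG28 and ERG7 were highest at hour 1, with 1.17, 0.85 and 0.35. NCP1, the reductase that feeds electrons to ERG11, differed by -0.024, and ERG24, the reductase after it, by -0.0092.

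ERG25, ERG26 and ERG27, which together remove methyl groups from the sterol ring, and their scaffold ERG28 were above their earlier means. ERG28 had ratios of 0.010, -0.42, 0.19 and 0.49 at hours 7 to 10, against -0.48, -1.89, -1.52 and -0.72 at hours 3 to 6. The later values all exceeded the earlier ones, and the difference of 1.22 was the largest of the list (95% interval 0.34 to 2.10). ERG27 stood at -0.32, -0.15, 0.073 and 0.25 at hours 7 to 10, against -0.26, -0.92, -1.47 and -0.82 at hours 3 to 6, with hour 7 just below hour 3. The differences of ERG27, ERG26 and ERG25 were 0.83, 0.75 and 0.74, the first alone with an unadjusted p under 0.05.

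Among the last steps, ERG6, the sterol methyltransferase that marks the fungal branch, had ratios of 1.48, -0.81, 1.84 and -0.42 at hours 7 to 10, against 0.75, -0.92, 0.46 and -0.81 at hours 3 to 6. Its odd hours were above 0 and its even hours below 0 on both sides, and its differences were 1.06 among odd and 0.25 among even hours. ERG2, ERG3, ERG5 and ERG4, which shift, add or remove double bonds, had differences of 0.43, 0.22, 0.40 and 0.21, none with an unadjusted p under 0.05. Their mean ratios were well below 0 on both sides. The regulator UPC2 had the highest ratios of the list, 3.01, 3.13, 1.92 and 1.83 at hours 7 to 10, against 2.85, 1.65, 2.91 and 2.73 at hours 3 to 6. The sides overlapped fully and its difference was -0.062, with an interval of -1.05 to 0.93. ECM22 differed by -0.14. The 11 members with an unadjusted p under 0.05 were, in pathway order, ERG13, HMG1, ERG12, ERG8, ERG20, ERG9, ERG7, ERG11, ERG27, ERG28 and ERG6.

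Other lipid genes had differences of both signs. Of 23 tested genes of fatty acid and phospholipid synthesis, 4 had an unadjusted p under 0.05 in the higher and 1 in the lower direction. Among all tested ORFs 2.45% and 2.83% did, and the median of this list was 0.11. CHO2, which methylates phosphatidylethanolamine, stood at -0.90, -0.90, 0.073 and -0.25 at hours 7 to 10, against -0.91, -1.52, -1.95 and -1.45 at hours 3 to 6. ITR1, the myo-inositol transporter, had ratios of -1.42, -1.12, -0.98 and -0.98 at hours 7 to 10, against -1.58, -2.36, -2.05 and -1.63 at hours 3 to 6. Both lay below 0 in nearly all hours and were less far below in the later hours, by 0.96 and 0.78. FAS1, a subunit of fatty acid synthase, differed by 0.63, with all later values above all earlier ones. The 1 gene in the lower direction was INO2, an activator of phospholipid genes, with ratios of -1.13, -0.80, -0.58 and -0.98 at hours 7 to 10, against -0.56, 3.14, -0.66 and 2.62 at hours 3 to 6. Its difference came from the even hours 4 and 6, the only ones above 0, with -3.77 among even and -0.24 among odd hours.

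Of 27 tested hypoxic and anaerobic genes, many of which answer to sterol or haem shortage, 3 were higher and 1 lower at an unadjusted p under 0.05. Among all tested ORFs 2.45% and 2.83% were, and the median of this list was 0.14. PAU5, a seripauperin of the cell wall family, had ratios of 0.39, 1.28, 0.13 and 0.34 at hours 7 to 10, against -0.28, -0.86, -0.93 and -0.25 at hours 3 to 6. Its later values all exceeded its earlier ones and its difference was 1.12. PAU3 of the same family differed by 0.60. Members of this family are near-identical in sequence, so that signals of PAU3 and PAU5 may include one another. TIR4, a wall mannoprotein of anaerobic cells, was on the lower side with -3.03, -2.88, -3.26 and -2.85 at hours 7 to 10, against -1.24, 0.64, -2.73 and -2.18 at hours 3 to 6. All its later values lay below all earlier ones, and hour 4 was the only one above 0. ROX1, the repressor of hypoxic genes, differed by 0.77, with an interval of -0.34 to 1.88.

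**Figure D3:**
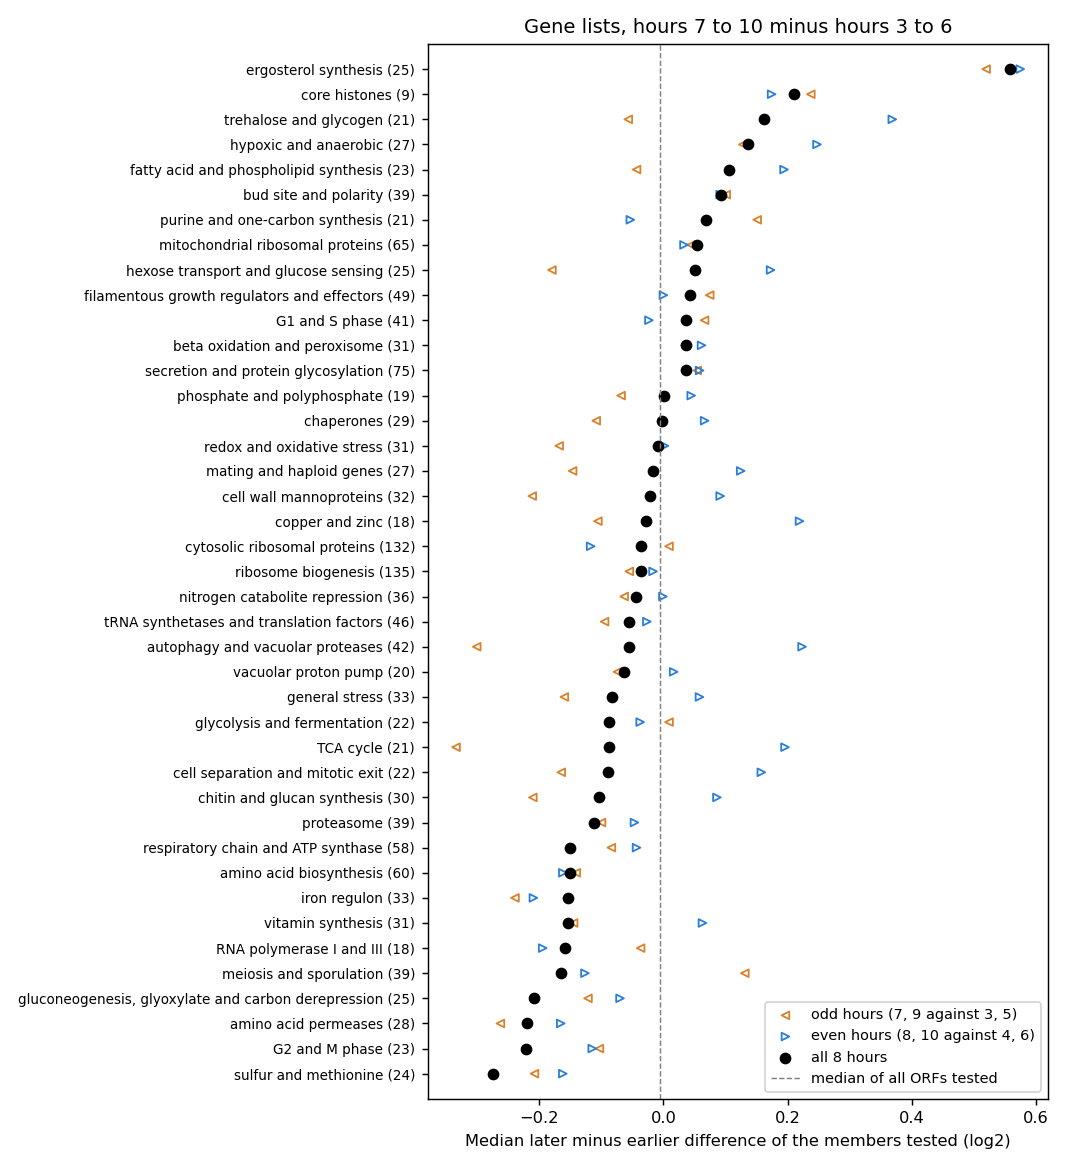
Median later minus earlier difference of the tested members of each of 41 gene lists (number tested in brackets), in log2 units, over all 8 hours (black), odd hours (orange) and even hours (blue). Ergosterol synthesis stands at 0.56, with odd and even hours close together, and the other lists lie between -0.28 and 0.21.

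The leading genes were taken as the 12 in each direction with the smallest unadjusted p among named genes whose sides did not overlap in odd or in even hours. They were chosen on these same values, so their differences carry no test of their own, and all had an adjusted p of 0.871. MAK3, the catalytic subunit of an N-terminal acetyltransferase, had the largest difference in the higher direction, with ratios of 3.55, 4.41, 2.83 and 0.53 at hours 7 to 10, against 0.24, -0.20, -0.40 and 0.13 at hours 3 to 6. Hours 7, 8 and 9 stood far above the rest, hour 10 only a little, and the difference was 2.89 with an interval of 1.15 to 4.63. TFG2, a subunit of the general transcription factor TFIIF, differed by 1.79, with ratios of 0.51, 2.24, 1.91 and 1.67 at hours 7 to 10, against -0.16, 0.36, -0.88 and -0.14 at hours 3 to 6. SDS22, a regulator of protein phosphatase, had the smallest unadjusted p of all ORFs tested, 0.000865, and stood at 1.65, -0.30, 1.95 and -0.31 at hours 7 to 10, against 0.0033, -1.22, -0.13 and -1.23 at hours 3 to 6. Odd hours ran above even hours on both sides, and within each kind the later hours were higher, for a difference of 1.39. The ratio of SDS22 was 2.69 at hour 1, above all its later values, and -0.91 at hour 2. SSE2, a chaperone of the HSP70 superfamily, differed by 1.79 and also varied with the kind of hour.

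Further leading genes in the higher direction belonged to several processes. MCM7, a subunit of the replicative helicase, had ratios of 0.38, 0.96, 0.34 and 1.73 at hours 7 to 10, against -0.23, 0.0066, -0.47 and 0.20 at hours 3 to 6. RAD6, the ubiquitin-conjugating enzyme of DNA repair and protein turnover, stood at -0.32, -0.21, -0.020 and -0.14 at hours 7 to 10, against -1.41, -1.35, -1.003 and -0.63 at hours 3 to 6. For both, all later values lay above all earlier values, and the differences were 0.98 and 0.93. MRPL31, a protein of the large mitochondrial ribosomal subunit, differed by 1.35, and MND1, which acts in meiotic recombination, by 1.18. CAF16, a protein tied to the CCR4-NOT complex, differed by 0.997. YGK1 differed by 1.41, and ERG11 and PAU5 complete the 12.

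Among the leading genes in the lower direction, JLP1, a dioxygenase that frees sulfite from sulfonates, had the largest difference. It stood at 0.027, -1.56, -0.54 and 0.66 at hours 7 to 10, against 2.29, 2.01, 1.96 and 3.59 at hours 3 to 6. The sides did not overlap, and the difference was -2.82 with an interval of -4.11 to -1.53. The ratios of JLP1 were -1.42 at hour 1 and 1.28 at hour 2, so it was highest at hours 3 to 6. The sulfur and methionine list, to which it belongs, had the lowest median of the 41 lists, -0.28, but only 1 of its 24 tested members was lower at an unadjusted p under 0.05 and 1 was higher. MLS1, malate synthase of the glyoxylate cycle, had ratios of 2.26, -0.20, 1.19 and 0.77 at hours 7 to 10, against 2.52, 3.24, 3.32 and 2.51 at hours 3 to 6. It was lower in each later hour than in any earlier hour, by -1.89 on average (95% interval -2.93 to -0.85), and its ratios were 4.34 at hour 1 and 1.72 at hour 2. CIN5, a stress-response transcription factor of the bZIP class, differed by -1.79, with lower values in even than in odd hours on both sides.

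POR1, the mitochondrial porin, was below 0 throughout, with -1.91, -3.67, -2.38 and -2.38 at hours 7 to 10, against -0.67, -1.79, -1.01 and -0.89 at hours 3 to 6. MPC2, a subunit of the mitochondrial pyruvate carrier, had ratios of 0.95, -0.16, 0.073 and -0.063 at hours 7 to 10, against 1.61, 1.44, 1.16 and 1.22 at hours 3 to 6. In both genes no later value reached the earlier range, and the differences were -1.49 and -1.16. SED1, a major structural mannoprotein of the wall, stood at -2.46, -3.05, -2.68 and -3.31 at hours 7 to 10, against -1.40, -1.86, -2.22 and -2.003 at hours 3 to 6. Its ratios were the further below 0 in the later hours, by -1.01. ARP1, the actin-related protein of dynactin, differed by -1.21. PEX30, a peroxisomal and endoplasmic reticulum membrane protein, differed by -0.98, and ECL1, which is linked to lifespan, by -1.37. RKM2, a lysine methyltransferase of a ribosomal protein, differed by -1.80, LMO1 by -1.42 and CPP3 by -1.87.

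**Figure D4:**
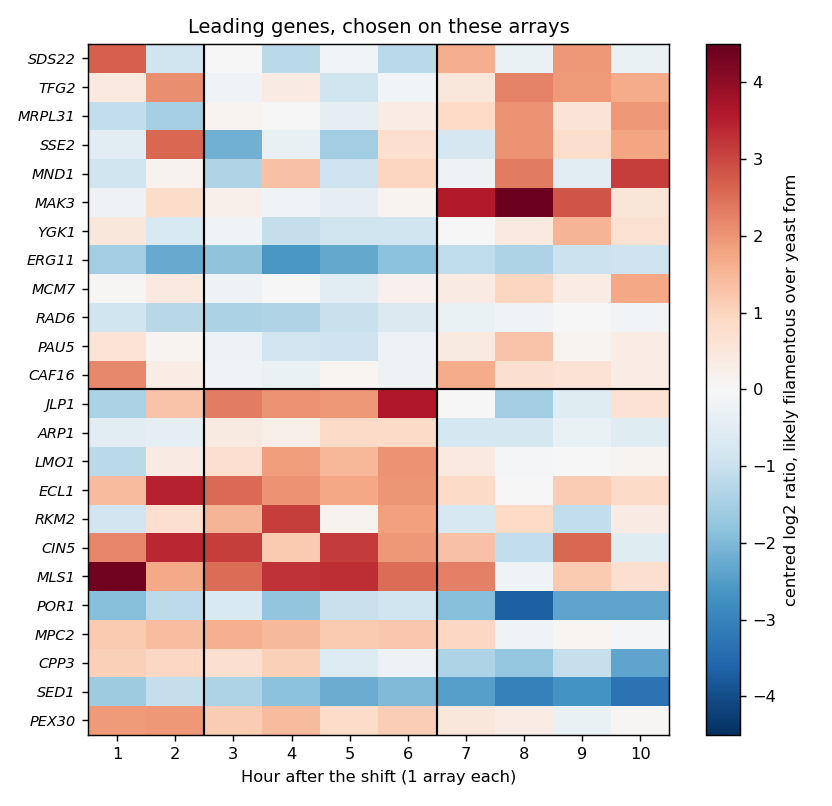
Centred log2 ratio (colour) of the 24 leading genes at each hour, the 12 with higher later values above the black horizontal line and the 12 with lower later values below it. Vertical lines part hours 1 and 2, hours 3 to 6 and hours 7 to 10, and the genes were chosen for the contrast that the picture shows.

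Genes of respiratory and alternative carbon metabolism gave small counts. Of 25 tested genes of gluconeogenesis, the glyoxylate cycle and carbon derepression, MLS1 was the only one with an unadjusted p under 0.05, and the median was -0.21. ACS1, ADH2 and SUC2, which serve growth on acetate, ethanol and sucrose, differed by -0.83, -1.55 and 1.23. Of 21 tested genes of the TCA cycle, 2 were lower and 0 higher at that p, where 2.83% and 2.45% of all tested ORFs were. The median of the TCA list was -0.088, -0.33 in odd and 0.20 in even hours. ACO1, aconitase, had ratios of 1.42, 0.55, -0.18 and -0.13 at hours 7 to 10, against 2.46, 1.77, 1.66 and 1.04 at hours 3 to 6. Hours 3 to 5 were the highest and the difference was -1.31, and FUM1, fumarase, and CIT2, the peroxisomal citrate synthase, differed by -0.65 and -0.63. SDH3, a subunit of succinate dehydrogenase, differed in the other direction by 0.69.

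The respiratory chain and ATP synthase list had 58 tested members. At an unadjusted p under 0.05, 3 were higher and 2 lower, where 2.45% and 2.83% of all tested ORFs were. In 0 of these members the later hours lay wholly above and in 6 of the 55 with 8 values wholly below in both kinds of hour. Of all ORFs with 8 values 3.00% and 3.49% did so, and the list's median was -0.15. CYC1, the main cytochrome c, differed by 1.03, with ratios of -0.64, 2.46, 0.14 and 1.26 at hours 7 to 10, against -1.97, 1.30, -1.52 and 1.27 at hours 3 to 6. Even hours ran above odd hours in it by more than the sides differed. ATP16, a subunit of ATP synthase, and the assembly factors COX18 and COX16 differed by -0.65, -0.65 and 0.60. In glycolysis and fermentation, hexose transport, and trehalose and glycogen metabolism, no tested member (of 22, 25 and 21) had an unadjusted p under 0.05, and the same was found for 33 general stress genes. The glycolysis list had the same median of its members' means, -1.07, in the later and in the earlier hours.

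Genes for poor nitrogen sources showed differences of both signs. Of 36 tested genes under nitrogen catabolite repression 1 was higher and 2 lower at an unadjusted p under 0.05, where 2.45% and 2.83% of all tested ORFs were. The median difference of this list was -0.045. The list's median ratio was 0.43, 0.60, 0.68 and 0.79 at hours 7 to 10, against 0.31, 0.68, 0.35 and 0.33 at hours 3 to 6, so it was above 0 on every array. That position also served to choose the likely direction of the ratio, so it is no separate result. GAP1, the general amino acid permease, had ratios of 1.502, 1.96, 1.96 and 1.78 at hours 7 to 10, against 1.65, 1.37, 1.94 and 1.44 at hours 3 to 6. The sides overlapped and the difference was 0.20, with an interval of -0.36 to 0.77. MEP1, an ammonium permease, differed by -0.80, its paralogs MEP2 and MEP3 by -0.44 and -0.75. MEP2, which also acts as an ammonium sensor in filamentation, stood at 0.44, 0.58, 0.76 and 1.44 at hours 7 to 10, against 1.04, 1.12, 1.19 and 1.62 at hours 3 to 6. Its sides overlapped through hour 10. DAL80, a GATA repressor, differed by 0.80 with a wide interval of -0.69 to 2.28, and DCG1 and DUR12, the second a urea-degrading enzyme, by -1.21 and 0.69.

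Of 28 tested amino acid permeases and their regulators, 4 were higher and 3 lower at an unadjusted p under 0.05. Among all tested ORFs 2.45% and 2.83% were, and the median of this list was -0.22. The 4 higher members each lacked a value on some compared array, so they are counted but not named. The 3 lower members were BAP2, DIP5 and AVT4. BAP2, a branched-chain amino acid permease, had ratios of -4.70, -4.61, -5.60 and -4.22 at hours 7 to 10, against -1.98, -4.02, -3.27 and -4.12 at hours 3 to 6. All later values were at or below -4.22, and hour 3 stood highest. DIP5, a permease for glutamate and aspartate, stood at 1.13, 1.04, 0.86 and 0.73 at hours 7 to 10, against 1.62, 1.54, 1.51 and 1.54 at hours 3 to 6, so that all later values lay below all earlier ones by a mean of -0.61. AVT4, a vacuolar amino acid exporter, differed by -1.21. STP2, which activates permease genes, differed by 0.63 with an unadjusted limma p of 0.052, so it is not among the 4 higher members. Of 60 tested genes of amino acid biosynthesis, 2 were higher and 2 lower. CPA1, which starts arginine synthesis, differed by -0.82, and the lysine genes LYS2, LYS1 and LYS21 by -0.65, -0.57 and 0.59.

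The filamentation genes did not separate later from earlier hours at this precision. Of 49 tested regulators and effectors, 2 were higher and 1 lower at an unadjusted p under 0.05, where 2.45% and 2.83% of all tested ORFs were. The median of this list was 0.043. FLO11 had ratios of 1.88, -0.60, 1.04 and 0.15 at hours 7 to 10, against 0.11, 0.32, 2.19 and 0.16 at hours 3 to 6. Hours 5, 7 and 9 were high and hour 8 low, the sides overlapped, and the difference of -0.078 had an interval of -1.20 to 1.04. Its difference changed sign without hour 4, 5, 8 or 9. KSS1, the MAP kinase of the cascade, was high in all hours, with 2.501, 2.79, 2.66 and 2.36 at hours 7 to 10, against 2.36, 2.89, 2.71 and 2.94 at hours 3 to 6, and differed by -0.15 with an interval of -0.69 to 0.40. The cascade's transcription factors STE12 and TEC1 differed by 0.043 and -0.12, and PHD1, another activator, by -0.22. CLN1, the G1 cyclin that promotes elongation, differed by -0.33 with an interval of -1.54 to 0.88.

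RIM101, a transcription factor of the pH response, had ratios of 0.90, 0.63, 0.56 and 0.502 at hours 7 to 10, against -0.45, -0.070, 0.067 and 0.12 at hours 3 to 6. All later values lay above all earlier ones, by 0.73. MSN1, a transcription factor, differed by 0.504. FLO9, a flocculin with close relatives whose signals may overlap with it, had ratios of -1.501, 0.32, -1.55 and 0.99 at hours 7 to 10, against 3.90, 3.08, -0.42 and 1.42 at hours 3 to 6. It was high at hours 3 and 4, and the difference was -2.43 with an interval of -4.52 to -0.35. For 18 genes fixed for all results, among them FLO11 and KSS1, 2 had an unadjusted p under 0.05, MLS1 and ARN1. HXT1 and HXT2, low-affinity and high-affinity hexose transporters, differed by -0.30 and 0.051, HSP12, a stress protein of the membrane, by 1.06, and GPH1, glycogen phosphorylase, by -0.23.

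**Figure D5:**
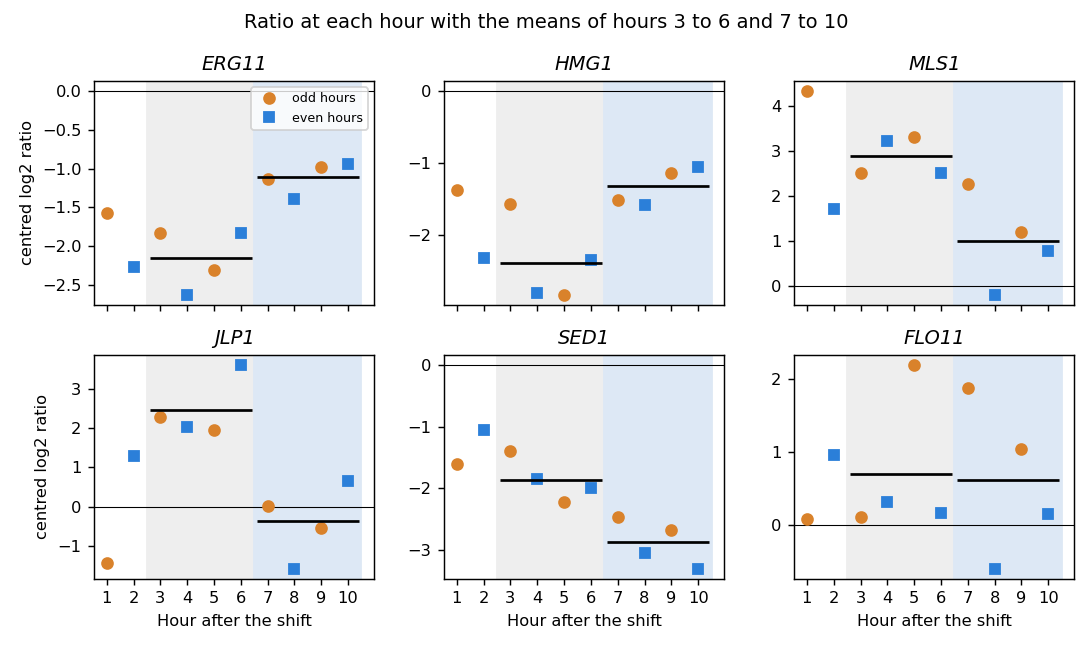
Centred log2 ratio (y axis) at each hour (x axis) of ERG11, HMG1, MLS1, JLP1, SED1 and FLO11, with odd hours as circles and even hours as squares. Blue shading marks hours 7 to 10, grey shading hours 3 to 6 and black lines the mean of each side. ERG11, MLS1, JLP1 and SED1 do not overlap between the sides, HMG1 overlaps through hour 3, and FLO11 overlaps throughout.

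Iron and wall genes were compared in the same way. Of 33 tested genes of the iron regulon, 0 were higher and 4 lower at an unadjusted p under 0.05, where 2.45% and 2.83% of all tested ORFs were, with a median of -0.15. ARN1, a siderophore transporter, was among the genes with the lowest ratios, -4.12, -4.03, -5.34 and -4.77 at hours 7 to 10, against -3.17, -3.98, -3.70 and -3.53 at hours 3 to 6. All its later values lay below all its earlier ones, by -0.97. FIT2, a wall mannoprotein that holds siderophores, stood at -1.05, -1.94, -2.51 and -2.33 at hours 7 to 10, against -0.29, -1.18, -0.21 and -1.08 at hours 3 to 6 and differed by -1.27. ISU2, an iron-sulfur scaffold, and VHT1, the biotin transporter, differed by -0.81 and -0.76, while FET3, the ferroxidase of reductive uptake, differed by 0.24. Of 32 tested wall mannoproteins, 1 was higher and 2 lower, and of 30 genes of chitin and glucan synthesis 0 were higher and 1 lower. GSC2, a glucan synthase, differed by -1.12, with ratios of -1.69, -2.77, -2.41 and -1.84 at hours 7 to 10, against -0.083, -1.01, -1.38 and -1.78 at hours 3 to 6. KRE1, KRE9 and SMI1, which also serve glucan, differed by -0.49, -0.46 and -1.005, and FIT3 by -0.73. CTS1, the chitinase of cell separation, and HPF1, a wall mannoprotein, differed by -0.042 and 0.18, both with overlapping sides.

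Ribosome genes showed nearly level medians. Their counts are at an unadjusted p under 0.05, where 2.45% of all tested ORFs were higher and 2.83% lower. Of 132 tested cytosolic ribosomal protein genes, 0 were higher and 2 lower, RPL15B and RPS22B, with a median of -0.036, and RPL2A and RPS7A differed by -0.96 and 0.54. Many of these genes have a near-identical copy that the spots may not tell apart, and RPS22B also overlaps the small nucleolar RNA gene SNR44. Of 135 tested genes of ribosome biogenesis, 0 were higher and 2 lower, UTP14 and NOP16, again with a median of -0.036, and NOP56 and RPF2 differed by -0.54 and 0.79. By array, the median ratio of the ribosomal proteins was -1.19 at hour 1 and -0.99 at hour 2. It was then between -0.25 and -0.093 at hours 3 to 6 and between -0.44 and -0.027 at hours 7 to 10. The median ratio of ribosome biogenesis was -0.58 at hour 1 and 0.017 at hour 2. It was then between 0.30 and 0.39 at hours 3 to 6 and between 0.20 and 0.43 at hours 7 to 10.

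Markers of other cell states were examined, since the cells are given as wild-type diploids. Of 27 tested mating and haploid genes, which a diploid represses, 0 were higher and 1 lower at an unadjusted p under 0.05, and the list's median ratio was between -0.35 and 0.090 at hours 7 to 10 and between -0.23 and -0.096 at hours 3 to 6. A ratio of 2 channels does not say whether such a gene was above background. Among those with 8 values FUS1, MF(ALPHA)2, AGA1 and FAR1 had the smallest p and differed by 0.96, -0.52, 1.83 and -0.35. The value of AGA1 rests on 5.58 at hour 10. Of 39 tested genes of meiosis and sporulation, 0 were higher and 3 lower, where 2.45% and 2.83% of all tested ORFs were. In 2 of the 30 members with 8 values the later hours lay wholly above in both kinds of hour, and in 2 wholly below. The shares of all ORFs with 8 values were 3.00% and 3.49%. The median difference of the meiosis list was -0.16, with 0.13 in odd and -0.13 in even hours. SPS4, a sporulation gene, had ratios of -0.60, 0.15, -0.017 and -1.11 at hours 7 to 10, against 1.05, 0.39, 1.21 and 1.85 at hours 3 to 6, and IME1, the inducer of meiosis, stood at -0.59, -1.80, -2.52 and -1.09 at hours 7 to 10, against -1.01, 0.44, -0.58 and 0.56 at hours 3 to 6. The sides did not overlap for SPS4, and IME1 overlapped through the odd hours, with differences of -1.52 and -1.35. CDA1, a chitin deacetylase of the spore wall, and RIM11, a kinase that acts on the IME1 protein, differed by -1.06 and 0.83. MND1, the leading gene of meiotic recombination named above, is not in this list and went the other way, with a difference of 1.18.

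Whether odd and even hours gave different later minus earlier differences was tested with an interaction term. No ORF passed an adjusted p of 0.05 (0% of 5752, smallest adjusted p 0.555, limma), and 303 had an unadjusted p under 0.05 (5.27%), a number that was 495 without hour 5. The ORFs with the smallest p differed in their pattern. PIR3, a wall protein, had ratios of 4.54, -0.58, 3.15 and 0.013 at hours 7 to 10, against -0.97, -0.82, -0.55 and -0.82 at hours 3 to 6. Its 2 odd later hours stood far above all others. CDC37, a co-chaperone of kinases, stood at 0.76, 4.46, 0.96 and 3.82 at hours 7 to 10, against 1.59, 0.90, 1.04 and 1.71 at hours 3 to 6, with the 2 even later hours high. For SLM5, a mitochondrial tRNA synthetase, the differences were 1.92 in odd and -1.80 in even hours, for MDG1, -1.51 and 2.17, and for TRS20, a subunit of the TRAPP complex, -0.70 and 1.72. INO2 had the smallest p of those with odd above even.

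The odd and even term itself was larger than the difference between the sides. Odd minus even hours passed an adjusted p of 0.05 (limma) in 175 ORFs (3.04%), 128 with odd above even and 47 below, and had a median size of 0.40, against 0.28 for later minus earlier. This count was 75, 41, 57, 15, 44, 37, 106 and 65 without hours 3, 4, 5, 6, 7, 8, 9 and 10 in turn. It was below 175 in each of these fits, which hold 7 arrays each.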

How the data were processed

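Per the labels, 10 hourly arrays were hybridised with 2 channels, of which 8 are compared here. The deposited values are log2 ratios, 1 per ORF and array, and 97.3% of those not at 0 were whole ten-thousandths as ratios with base 2 (tolerance 0.02), against 4.79% with base 10 and 4.57% with base e. The sources used here do not give the dyes, the scanner or the authors' normalization. All values carry a 3 as 7th decimal, and 3324 of 62920 (5.28%) read 3e-07. They were taken as zeros (tolerance 5e-07) and so as missing. No spot intensities were used.

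Array medians were subtracted. ORFs with at least 3 values on each side were fitted by lmFit and eBayes of limma 3.58.1 (R 4.3.3), with terms for side and odd or even hour. A second fit added their interaction. All p-values are two-sided, adjusted by Benjamini-Hochberg over all ORFs, with a threshold of 0.05. Exact permutation tests of 4 array measures enumerated 70 arrangements (adjusted p 0.914 for all). ORF names were looked up in the gene table of RefSeq assembly R64 (5792 matched, 500 did not), used for names and overlaps only. The limma code was tested on simulated data.

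The comparison, the 41 gene lists and the alternatives were chosen with earlier results of these data known. Named genes with 8 values were the 12 per direction past the threshold with the largest difference, filled by the smallest unadjusted p among genes whose sides did not overlap in odd or in even hours, up to 4 members per list with the smallest p, 18 fixed genes, and up to 6 per direction with the smallest interaction p, of which the first 3 are described. All ergosterol members are given because the list stood apart. Alternatives for the ergosterol count, the overlap count and the odd and even term were chosen after seeing the data. One gene chosen by this rule is not reported here. Spot sequences and genome coordinates are not used here. Figures were drawn with matplotlib 3.10.9.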

Additional observations from a re-analysis of the deposited data

Results flagged for a closer look

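In 14 of the 346 groups of 4 arrays looked at (4.05%), 1 array stood apart from the other 3 by more than Dixon's critical value allows. For unselected, independent normal values about 1 in 20 such groups would be flagged. The groups here share arrays, and many of the genes were chosen on these same values. The share therefore cannot be judged against that rate. All values are centred log2 ratios.

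In the later hours, hour 10 of AGA1, an anchor of the mating agglutinin, was 5.58, while hours 7 to 9 lay between -0.95 and -0.027. ERG2 was -3.09 at hour 8, against -1.52 to -1.23 in the other later hours, and RPF2 was 1.76 at hour 8. The median ratio of the G1 and S phase list was 0.043 at hour 10, with -0.18 to -0.16 in the other later hours.

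In the earlier hours, FLO11 was 2.19 at hour 5, with 0.11 to 0.32 in hours 3, 4 and 6. UPC2 was 1.65 at hour 4, PAU3 was -0.90 at hour 5, ERG24 was -0.28 at hour 3 and RIM11 was 1.09 at hour 3. Hour 3 also stood apart in the median ratio of 3 lists, with 0.30 for sulfur and methionine, 0.43 for redox and oxidative stress, and -0.64 for chitin and glucan synthesis. The nitrogen catabolite repression list had a median of 0.68 at hour 4, and the proteasome list one of -0.017 at hour 5. The difference of UPC2 turned sign without hour 5, 6, 9 or 10, though not without hour 4, that of FLO11 without hour 4, 5, 8 or 9, and that of ERG24 without hour 3, 8 or 9.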

How the results depend on the processing

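No ORF passed an adjusted p of 0.05 in any setting tried, and the smallest adjusted p lay between 0.171 (without hour 10) and 1 (no odd and even term, and hours 9 and 10 against 3 and 4). The number of ORFs with an unadjusted limma p under 0.05 and higher later values was 93 without the odd and even term and 93 with hours 9 and 10 against 3 and 4, and the number with lower later values was 106 in odd hours alone and 77 with hours 9 and 10 against 3 and 4, against 141 and 163. Leaving out 1 hour gave 120 to 205 higher and 116 to 178 lower. The count of 11 ergosterol genes was 1 in odd hours alone, 3 in even hours alone, 7 with adjacent hours averaged, 0 with hours 9 and 10 against 3 and 4, 4 with hours 1 and 2 added to the earlier hours, 7 on the deposited scale, and 5 to 11 when 1 hour was left out. Its list median was the highest of the 41 lists in every setting, between 0.31 (hours 1 and 2 added) and 0.71 (without hour 3). The count of ORFs whose sides did not overlap was 90 with the later hours higher and 251 with them lower on the deposited scale, and 137 and 223 after quantile normalization, against 151 and 176, and the interaction count was 246 to 495 when 1 hour was left out. The SD over an array was higher in the later hours by 0.019, but the interquartile range differed by -0.063. Some settings hold fewer arrays, and the cause of these shifts was not tested. Thresholds of 0.1 and 0.01 on the adjusted p gave 0 ORFs as well. No paired analysis was possible because each hour has 1 array and the replicate numbers only follow accession order. Single genes that were not called turned sign as follows, and the cause was not tested. In odd hours alone the differences that turned sign were FLO11 0.31, KSS1 0.046, GAP1 -0.061, HXT2 -0.37, FET3 -0.076, CTS1 0.29, HPF1 -0.77, ERG4 -0.058, ERG3 -0.13, HMG2 -0.0084, CDC37 -0.46, MDG1 -1.51 and TRS20 -0.70. With a linear term in hour (scaled to 4 hours) the differences that turned sign were FLO11 0.12, TEC1 0.18 and CLN1 0.083. With hours 9 and 10 against 3 and 4 the differences that turned sign were FLO11 0.38, TEC1 0.56, MEP2 0.022, CLN1 0.54, GPH1 0.22, CTS1 0.0082, ERG4 -0.043, ERG3 -0.20 and HMG2 -0.035. In even hours alone the differences that turned sign were PHD1 0.46, TEC1 0.26, STE12 -0.058, CLN1 0.00996, UPC2 0.29, NCP1 0.22, ECM22 0.29, ERG2 -0.0014, ERG24 0.078 and SLM5 -1.80. With hours 1 and 2 added to the earlier hours the differences that turned sign were STE12 -0.43, KSS1 0.13, CLN1 0.31, HPF1 -0.055, UPC2 0.19 and MDG1 -0.091. On the deposited scale the differences that turned sign were STE12 -0.017, HXT2 -0.0091 and SLM5 -0.00086. After quantile normalization the differences that turned sign were CTS1 0.051. With equal spread the differences that turned sign were UPC2 0.062. With array weights the differences that turned sign were NCP1 0.084, ECM22 0.039, ERG24 0.054 and SLM5 -0.0073. Leaving out 1 hour at a time, the differences that turned sign had these ranges, FLO11 -0.57 to 0.26, TEC1 -0.30 to 0.21, STE12 -0.045 to 0.10, CLN1 -0.77 to 0.064, HXT2 -0.12 to 0.28, CTS1 -0.22 to 0.19, HPF1 -0.14 to 0.63, UPC2 -0.39 to 0.23, ERG4 -0.093 to 0.63, NCP1 -0.20 to 0.25, ERG3 -0.080 to 0.66, ECM22 -0.49 to 0.15, HMG2 -0.036 to 0.19, ERG24 -0.18 to 0.18, SLM5 -0.48 to 0.56 and MDG1 -0.27 to 0.92.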
